A study of Mus musculus with 72 samples.

Results

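The mitochondrial ribosomal protein genes, taken as all protein-coding genes whose symbol begins with Mrpl or Mrps and a number and does not carry the pseudogene ending -ps, were followed through 4 subcellular RNA fractions of mouse embryonic stem cells. There were 78 of them among 21793 protein-coding genes in the count files, 29 with Mrps symbols (named for the small subunit) and 49 with Mrpl symbols (named for the large subunit). Small and large subunit refer below to the symbol alone, which need not match where each protein sits. They were chosen by name and not by any measured value. The cells were the E14TG2a line in 2i and LIF medium, a combination of 2 kinase inhibitors and leukemia inhibitory factor that holds mouse embryonic stem cells in the naive state. All libraries came from cells labeled with 4-thiouridine (4sU), which enters newly made RNA and is read as T-to-C (T2C) changes after chemical conversion (SLAM-seq), so that no unlabeled library was used here. Cells were separated with detergents into nuclear, cytosolic and membrane fractions, and RNA of whole cells was taken beside them. Each fraction had 16 libraries from 6 replicates. The labeling times were 15, 20 and 30 min in replicates 1 and 2. In replicates 3 and 4 they were 20, 40 and 60 min, and replicates 5 and 6 covered 60 and 120 min. The labels give 500 µM 4sU up to 40 min and 100 µM at 60 and 120 min, whereas the methods of the study list 60 min labeling at both doses. As the libraries used here came from a single line in a single culture medium, the comparisons are between fractions of the same cultures and between labeling times.

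Mitochondrial ribosomes translate the few proteins encoded in mitochondrial DNA, all of them core parts of the respiratory chain or the ATP synthase. Their RNAs are transcribed within the organelle, whereas every ribosomal protein is encoded in the nucleus, translated outside mitochondria and imported. Some of these proteins descend from bacterial ribosomal proteins, and others were added during the evolution of mitochondria. An mRNA of such a protein can be translated on free ribosomes of the cytosol or on ribosomes held near the outer mitochondrial membrane. The study describes its membrane fraction as mostly endoplasmic reticulum and mitochondria, so a level there does not tell these organelles apart.

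Gene counts of single libraries summed to 15382522 at the lowest, 21362457 at the median and 52975732 at the highest. The expected markers stood where the labels put them. All 10 listed mRNAs of endoplasmic reticulum proteins were higher in the membrane fraction than in the cytosol (median log2 difference 4.70), and the 6 nuclear noncoding RNAs had a median nucleus over cytosol log2 difference of 2.05. The 9 naive stem cell markers summed to between 4379 and 6707 normalised counts (CPM, counts scaled to a common library size) in whole cells, against 7.56 to 15.3 for 6 fibroblast markers. Mitochondrial-encoded mRNAs took 7.55 to 14.1% of counts in the membrane fraction, 0.543 to 1.19% in the nucleus and 0.0289 to 0.195% in the cytosol. Conversion rates of the 60 min libraries went against their common labeled dose, as they were 5.83 to 8.29% in replicates 3 and 4 but 2.38 to 3.99% in replicates 5 and 6. Since the methods of the study list both doses at 60 min, the dose given by the labels for replicates 3 and 4 is uncertain. Values at 60 min with n = 4 may thus join libraries of different doses. For whole cells of replicate 6, the library labeled 60 min held more new RNA than the one labeled 120 min, which is given with the values concerned below.

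The mitochondrial ribosomal protein mRNAs were abundant and unequal. Levels of different genes are compared per kilobase of transcript and after scaling for depth (RPKM), averaged over 6 replicates of whole cells. On this scale 63 of the 77 members with reads lay at or above percentile 75 of genes tested, and the median member stood at percentile 87.4. The highest was Mrpl42, a large subunit protein, with 152 ± 21 RPKM (SD, n = 6) in whole cells. It was followed by Mrpl20 with 142 ± 14 RPKM and Mrps18b, one of 3 related proteins with Mrps18 symbols, with 112 ± 20 RPKM. Mrpl52 had 104 ± 17 RPKM, and Mrpl12, a protein of the stalk that recruits translation factors, had 93.7 ± 19 RPKM. Mrps18b, Mrpl52 and Mrpl12, neighbours in this order, did not differ beyond their SD. At the lower end were Mrps25 with 6.28 ± 0.84 RPKM and Mrps26 with 8.02 ± 1.3 RPKM. The order depends on the length used, a median over annotated transcripts, which was 661 bp for Mrpl42 and 6073 bp for Mrps25. Lengths of the isoforms expressed were not measured, and the SD does not cover this. Counts of RNA in a bulk sample cannot separate fewer molecules per cell from fewer cells with the molecule.

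Mrpl53 (chr6:83109040-83109939, plus strand, GRCm38) was the only member listed at 0 reads in all 24 replicate sums, and it was not tested for its level. Its exons overlap those of Gm42688 on the same strand, which had 18 to 316 reads per sum. In the T2C files, which count T positions by another route, Mrpl53 had at least 8526 exonic T counts in each nuclear library, and its shares of new RNA are given with the others. Of the 77 remaining members, 7 also share exonic sequence with a gene on the same strand, among them Mrpl33 (with Gm43809), Mrpl3, Mrps18c and Mrps24, and their counts are therefore less certain.

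To ask whether these mRNAs associate with membranes, levels in the membrane fraction were compared with those in the cytosol. Levels were scaled within each fraction, and by the study's estimate the membrane fraction holds more mRNA in total than the cytosol. A scaled level that is lower at membranes therefore does not show that fewer molecules of a member were there. As a group they did not stand away from the transcriptome. The median log2 membrane over cytosol difference was -0.11 for the 77 members and -0.14 for all 19040 genes tested. By the edgeR quasi-likelihood test with Benjamini-Hochberg adjustment over all genes, 9 members were higher in the membrane fraction, where 21.5% of all genes were, and 7 were lower, where 14.3% of all genes were. The other 61 were not called. On the ratio of mean length-normalised levels, which the study calls membrane enrichment, all 77 members were below 1.5, the limit it sets for cytosol-localized mRNAs, as were 79.6% of all genes with a level of at least 1.5. Their enrichment ran from 0.54 to 1.39 with a median of 0.77, while 14.9% of all genes reached 3. The small and large subunits had median log2 differences of -0.09 (4 of 29 higher, 2 lower) and -0.13 (5 of 48 higher, 5 lower). Members with a bacterial homolog had -0.10 (5 of 46 higher, 5 lower) and those specific to mitochondria -0.13 (4 of 31 higher, 2 lower). This split, here and below, was made by the number in the symbol. Low numbers were taken as having a bacterial homolog, with Mrps24 and Mrpl47 added to them. Sequences were not compared, so single genes may be misplaced.

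**Figure D1:**
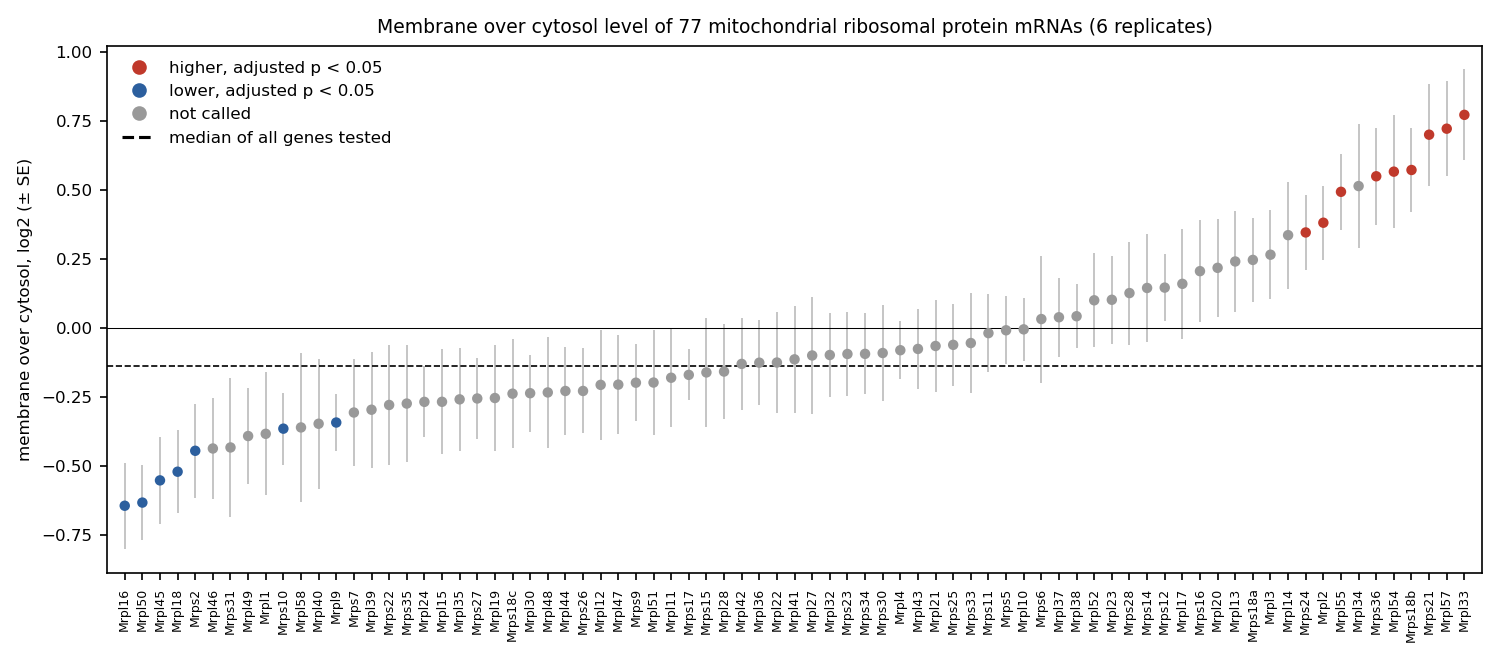
Membrane over cytosol log2 difference with its SE for each of the 77 members, in order (vertical axis: log2 of normalised counts; horizontal axis: gene). The 9 members called higher are at the right, the 7 called lower at the left, and the dashed line at -0.14 is the median of all genes tested.

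The members at the upper end were mostly mRNAs of very small proteins. Mrpl33 (chr5:31596935-31664384, plus strand), a short large subunit protein with a bacterial homolog, had 15.2, 16.9 and 24.3 CPM as the lowest, median and highest of 6 membrane replicates. In the cytosol it had 8.94, 10.6 and 12.2 CPM. All membrane replicates lay above all cytosolic ones, and the mRNA was 1.71-fold higher in the membrane fraction (log2 0.77, SE 0.16, adjusted p = 0.000466). Mrpl57 (chr14:57826234-57829296, plus strand), a protein without a bacterial counterpart, had 43.1, 54.5 and 68.9 CPM at membranes and 31.1, 33.9 and 35.5 CPM in the cytosol, without overlap. Its log2 difference was 0.72 (SE 0.17, adjusted p = 0.00156). Mrps21 (chr3:95862634-95871519, minus strand), which has a bacterial homolog, had 41.9, 48.9 and 71.0 CPM against 27.4, 29.4 and 40.5 CPM. These groups did not overlap either, and the log2 difference was 0.70 (SE 0.18, adjusted p = 0.00378). Only 1 more member, Mrpl2, chosen after its values were seen, was higher without overlap, so that 4 of 77 did so, whereas 16.5% of all genes did.

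Mrps18b, Mrpl54 and Mrps36 followed with smaller differences and overlapping groups. Mrps18b was 1.49-fold higher (log2 0.57, SE 0.15, adjusted p = 0.00407), with a median of 150 CPM at membranes and 88.1 CPM in the cytosol. For Mrpl54 the log2 difference was 0.57 (SE 0.21, adjusted p = 0.0331), with medians of 78.4 and 43.6 CPM. Mrps36, which is also known as a subunit that holds the alpha-ketoglutarate dehydrogenase complex together, had medians of 29.7 and 18.5 CPM and a log2 difference of 0.55 (SE 0.17, adjusted p = 0.0153). The ratio was above 1 in 6 of 6 replicates for each of these 3. The calls of all 3 were lost with library sizes alone (adjusted p = 0.0536, 0.142 and 0.143) and without replicate 5 (adjusted p = 0.0537, 0.201 and 0.09), and those of Mrpl54 and Mrps36 also without replicate 1 (0.0927 and 0.0692). Mrpl54 was not called without replicate 6 either (0.0792).

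The lower end held mRNAs of proteins of various lengths. Mrpl16 (chr19:11770391-11774960, plus strand), a conserved protein of the large subunit, had 35.3, 39.2 and 46.2 CPM in the membrane fraction and 48.4, 54.2 and 93.3 CPM in the cytosol. The groups did not overlap, with a log2 difference of -0.64 (SE 0.16, adjusted p = 0.00181). Mrpl50 (chr4:49512596-49521093, minus strand), found in mitochondria but not in bacteria, had 54.8, 59.2 and 65.0 CPM against 76.0, 83.7 and 127 CPM, again without overlap (log2 -0.63, SE 0.14, adjusted p = 0.0005). Mrpl45, which lies at the exit of the peptide tunnel and helps to hold the ribosome to the inner membrane, had 142, 165 and 172 CPM against 180, 206 and 359 CPM. Its membrane values were all below the cytosolic ones (log2 -0.55, SE 0.16, adjusted p = 0.00695). Lower without overlap were 4 of 77 members, the last being Mrpl9 (named after its values were seen), and 5.31% of all genes.

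Mrpl18 was 1.43-fold lower in the membrane fraction (log2 -0.52, SE 0.15, adjusted p = 0.008), although its groups overlapped and the call was lost without replicate 4 (adjusted p = 0.0576). Mrps2, a conserved small subunit protein, had a log2 difference of -0.45 (SE 0.17, adjusted p = 0.0423), which did not pass without replicate 1, 2, 3, 4 or 6 (adjusted p between 0.0688 and 0.102), nor without a filter (0.169). Mrpl46 had a log2 difference of -0.44 (SE 0.18) and was not called (adjusted p = 0.0667). Of the 4 members named for their known roles, Mrps36 was called higher, as given above, and the other 3 were not called. Mrpl12, of the stalk, had a log2 difference of -0.21 (SE 0.20, adjusted p = 0.445). Mrps7, which binds the small subunit rRNA early in assembly, had -0.31 (SE 0.20, adjusted p = 0.232), and Mrpl47 had -0.21 (SE 0.18, adjusted p = 0.397).

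**Figure D2:**
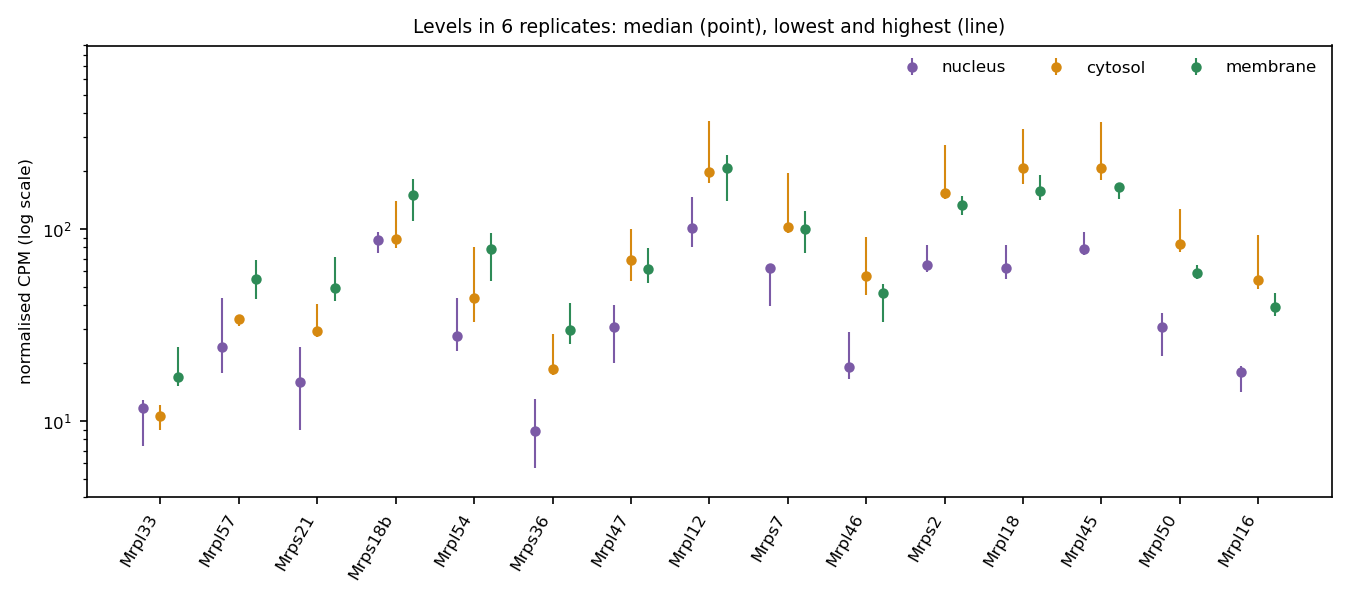
Normalised CPM (logarithmic vertical axis) of 15 members in nucleus, cytosol and membrane fraction, ordered from the highest to the lowest membrane over cytosol difference. Points are medians and lines run from the lowest to the highest of 6 replicates. Membrane values stand above cytosolic ones for Mrpl33, Mrpl57 and Mrps21 and below them for Mrpl45, Mrpl50 and Mrpl16.

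Coding length varied with the membrane over cytosol difference among the members. Coding sequences (the longest of each gene) ran from 195 bp in Mrpl33 to 1326 bp, with a median of 582 bp, against 1389 bp for all 14700 protein-coding genes tested. Among the shortest 26 members (195 to 498 bp) the median log2 difference was 0.07, with 6 members higher and 1 lower. The middle 26 members (501 to 756 bp) had a median of -0.15 with 1 higher and 3 lower, and the longest 25 (762 to 1326 bp) a median of -0.23 with 2 higher and 3 lower. Spearman's rho of coding length with the log2 difference was -0.44 over the 77 members and -0.00 over the 14700 genes, as a description over genes of the same libraries. Mrps18b, with 762 bp, was higher at membranes despite its length, and Mrpl50, with 477 bp, was lower despite being short. Whether library preparation or counting treats short transcripts differently between fractions was not tested.

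**Figure D3:**
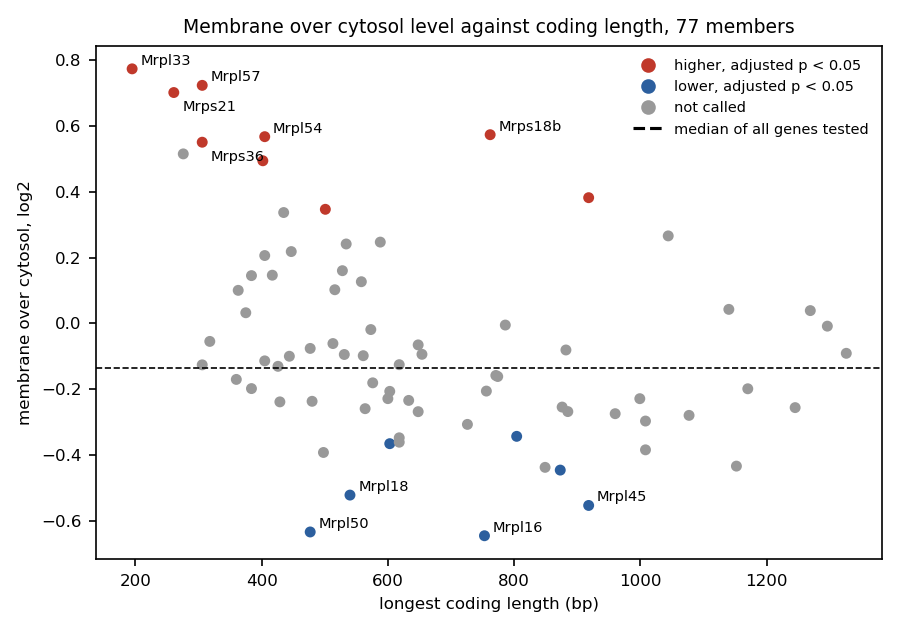
Membrane over cytosol log2 difference (vertical axis) against the longest coding length in bp (horizontal axis) for the 77 members. Red points are members called higher, blue points those called lower, and grey points those not called. Of the 9 red points, 6 belong to the 26 shortest coding sequences.

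Between pairs of replicates with the same labeling times, the position of the group relative to all genes was not stable. Median member log2 differences were 0.13 in replicates 1 and 2 (all genes -0.02), -0.20 in replicates 3 and 4 (all genes 0.02) and -0.06 in replicates 5 and 6 (all genes -0.19). In replicates 1 and 2, 18 members were called higher and 1 lower, beside 23.8% and 10.5% of all genes. In replicates 3 and 4, 6 were called higher and 18 lower (22.6% and 12.8% of all genes), and in replicates 5 and 6, 16 higher and 21 lower (23% and 33.7%). With library sizes alone in place of TMM factors, the median of all genes moved by -0.31, and the split changed from 9 higher and 7 lower to 3 higher and 45 lower, while 19% of all genes were then higher and 38.5% lower. Calls at this scale are thus relative to the other genes.

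Lists of genes that work with the mitochondrial ribosome in the same pathway had medians on both sides of that of the ribosomal proteins, and some of their genes lay outside its range. Of 5 mitoribosomal proteins without an Mrp symbol (Dap3, Ptcd3, Chchd1, Aurkaip1 and Gadd45gip1), none was called and the median log2 difference was 0.13. Mitochondrial translation factors had a median of -0.20 (1 of 11 higher, 3 lower), assembly factors -0.16 (3 of 23 higher, 4 lower) and mitochondrial aminoacyl-tRNA synthetases -0.11 (4 of 17 higher, 3 lower). Oxa1l and Letm1, listed for insertion into the inner membrane, were both called higher (median 0.58). Above the highest ribosomal protein were Mpv17l2, a membrane protein of mitochondria, with a log2 difference of 2.40 (SE 0.16), the tyrosyl-tRNA synthetase Yars2 with 1.62 (SE 0.15) and the isoleucyl-tRNA synthetase Iars2 with 1.46 (SE 0.16). Fastkd2, an RNA-binding protein of mitochondria, had 1.18 (SE 0.19), the ribosome recycling factor Gfm2 0.96 (SE 0.12) and the inner membrane protein Letm1 0.80 (SE 0.13). All 6 were called. Nuclear-encoded respiratory chain subunits had a median of 0.41 (32 of 82 higher, 2 lower), and cytosolic ribosomal proteins -0.25 (3 of 75 higher, 16 lower). A difference between these groups was not tested, since genes of a group are not replicates.

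Next, levels in the nucleus were compared with those in the cytosol, using the same cytosolic samples. Nearly all members were lower in the nucleus relative to the other genes. Counts were scaled within each fraction, and the study estimates that the nucleus holds more mRNA in total than the cytosol. A lower scaled level therefore does not show that fewer molecules of a member were in the nucleus. The quasi-likelihood test called 72 of 77 lower and 0 higher, while 30.9% of all genes tested were lower and 32.2% higher. The median log2 nucleus over cytosol difference was -1.01 for the members, -0.01 for all genes and -0.06 for protein-coding genes. All 77 members lay below the median of all genes. Also called lower were 8 of 10 mRNAs of soluble cytosolic proteins and 8 of 9 naive stem cell markers. Spearman's rho of coding length with this difference was 0.38 over 14700 protein-coding genes and 0.19 over the 77 members. The members have short coding sequences, and the part of length in their position was not tested. With library sizes alone the median of all genes moved by 0.36, and 52 members were called lower and 0 higher, beside 18.4% and 41.7% of all genes. In 56 of 77 members, all 6 nuclear replicates were below all 6 cytosolic ones, which was the case in 19.7% of all genes. The small subunit had 27 of 29 members lower (median -0.91) and the large subunit 45 of 48 (median -1.13). Of the members with a bacterial homolog 42 of 46 were lower, and of those specific to mitochondria 30 of 31.

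**Figure D4:**
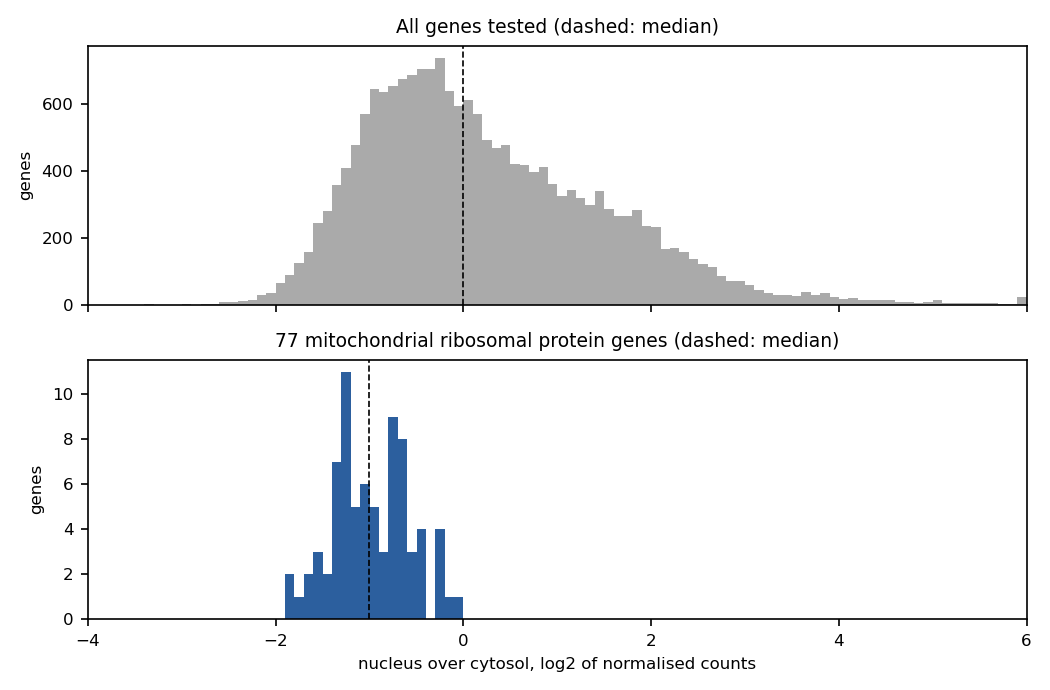
Histograms of the nucleus over cytosol log2 difference (horizontal axis, bins of 0.1; vertical axis, number of genes) for all 19040 genes tested (top, values beyond the axis placed in the end bins) and the 77 members (bottom). The members lie between -1.84 and -0.01 around a median of -1.01, whereas the median of all genes is -0.01.

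Mrpl16 and Mrpl50, the lowest members at membranes, were also among the 4 lowest in the nucleus. Mrpl16 had 14.1 to 19.3 CPM in the nucleus, far below its cytosolic values (log2 -1.84, SE 0.16, adjusted p = 1.71e-09). Mrpl18 had 54.7, 62.1 and 82.4 CPM in the nucleus and 172, 207 and 332 CPM in the cytosol (log2 -1.83, SE 0.16, adjusted p = 1.21e-09). Mrpl42, the most abundant member in whole cells, had 36.6, 59.5 and 66.6 CPM against 148, 166 and 286 CPM (log2 -1.79, SE 0.17, adjusted p = 6.36e-09). For Mrpl50 the values were 21.9, 30.9 and 36.3 CPM against 76.0, 83.7 and 127 CPM (log2 -1.63, SE 0.14, adjusted p = 1.21e-09). The nuclear and cytosolic groups of all 4 were fully apart.

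The 5 members not called included the 4 highest of the set. Mrpl33 had 7.36, 11.6 and 12.9 CPM in the nucleus, which overlapped its cytosolic values (log2 -0.01, SE 0.16, adjusted p = 0.953). Mrps18b had a log2 difference of -0.18 (SE 0.15, adjusted p = 0.299), Mrpl57 -0.22 (SE 0.17, adjusted p = 0.259) and Mrpl24, a protein near the exit of the peptide tunnel, -0.25 (SE 0.13, adjusted p = 0.0869). Under library sizes alone the sign of these 4 turned, with values of 0.12 to 0.35. Mrpl33, Mrps18b and Mrpl57 were also among the 4 highest in the membrane fraction, a comparison that shares the cytosolic samples. Mitochondrial-encoded mRNAs were higher in the nucleus than in the cytosol (7 of 8 tested, median log2 2.41), and the part of mitochondria in the nuclear values of the members was not tested.

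The size of the nucleus over cytosol difference varied between replicates, while its direction in the group did not. Levels were summed over labeling times, and pairs of replicates differ in these times, so labeling time and replicate cannot be told apart. The median over members in single replicates was -0.89, -0.73, -1.88, -1.43, -0.54 and -0.44 for replicates 1 to 6, while that over all genes stayed between -0.06 and 0.03. In replicates 1 and 2 alone 63 members were called lower (29.1% of all genes), in replicates 3 and 4 alone 70 (24.5%) and in replicates 5 and 6 alone 42 (25.5%). In the last pair 3 members were higher, as were 38% of all genes. Cytosolic ribosomal proteins had a median of -1.44 (74 of 75 lower) and respiratory chain subunits -0.68 (49 of 82 lower, 3 higher). Mitochondrial translation factors were at -0.32 (6 of 11 lower, 2 higher), assembly factors at -0.29 (11 of 23 lower, 5 higher) and aminoacyl-tRNA synthetases at 0.03 (5 of 17 lower, 6 higher).

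Newly made RNA was then followed over labeling time as its share among all RNA of a gene. This share is the T2C count divided by the T count and by the conversion rate of the library, so that 1 stands for complete replacement. No background was subtracted, so sequencing errors can raise the share above 0 without new RNA. How much of the low shares, as at the short labeling times, is such background was not tested. The same holds for the comparisons of shares between fractions. All 78 members had at least 400 exonic T counts in each nuclear, cytosolic and membrane library. The share of the members rose slowly. In the cytosol, the median over members rose from 0.0137 ± 0.0026 (SD, n = 2) at 15 min to 0.0356 ± 0.000034 (n = 2) at 40 min and 0.223 ± 0.015 (n = 2) at 120 min, where the median of all 11646 genes was 0.370 ± 0.0041. At 60 min it was 0.0598 and 0.0615 in replicates 4 and 3 and 0.117 and 0.131 in replicates 6 and 5, which split as the conversion rates did. In the membrane fraction it reached 0.189 ± 0.018 at 120 min (all genes 0.303 ± 0.022), and in nuclear exons 0.277 ± 0.015 (all genes 0.429 ± 0.022).

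The median of the members was below that of all genes in 16 of 16 cytosolic, 16 of 16 membrane, 16 of 16 whole-cell and 15 of 16 nuclear libraries. At 120 min, 67 and 68 of 78 members were below the median of all genes in the cytosolic libraries, 65 in both membrane libraries and 68 in both nuclear ones. Whole cells gave 0.221 in replicate 5 and 0.105 in replicate 6 at 120 min, and 0.136 and 0.236 in the same replicates at 60 min. Replicate 6 thus ran against its labels in whole cells, for all genes as well (0.175 at 120 min and 0.378 at 60 min), while its 3 fractions did not. Without it, the whole-cell medians at 60 min were 0.0780, 0.0811 and 0.136.

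**Figure D5:**
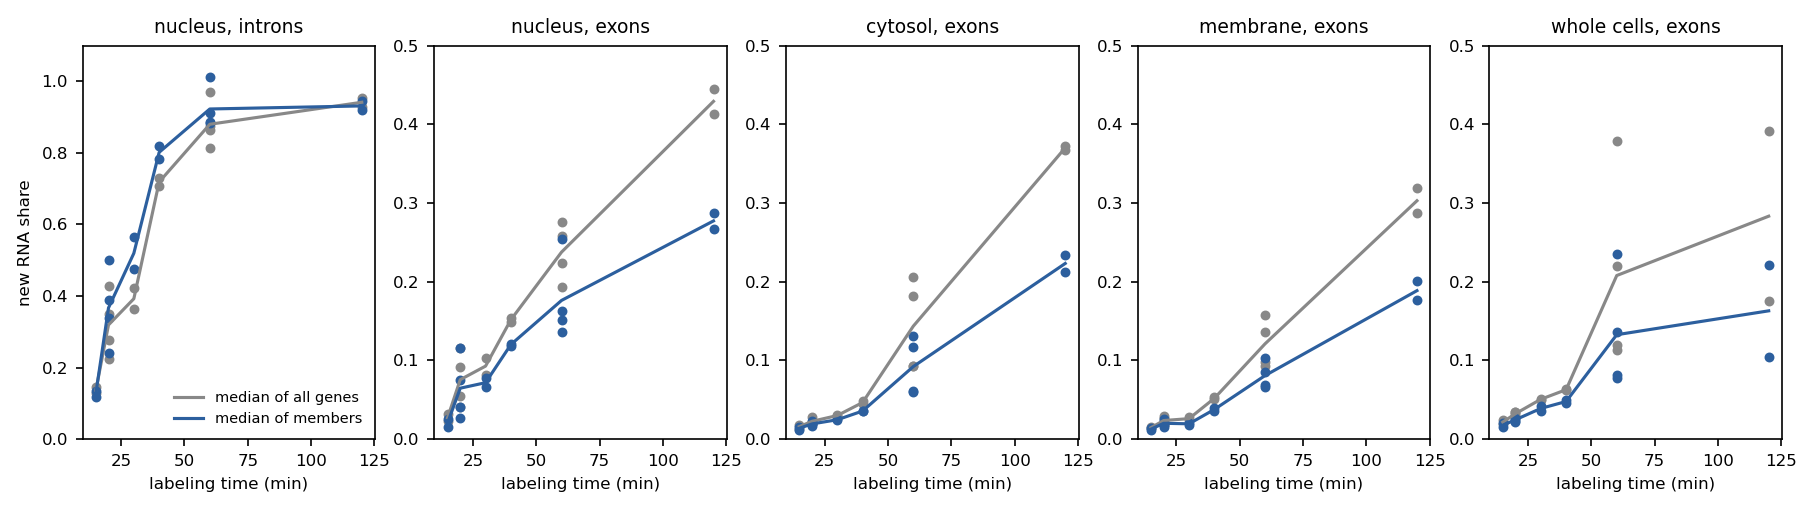
Share of new RNA (vertical axes, 0 to 1.1 for introns and 0 to 0.5 for exons) against labeling time in min (horizontal axes) for nuclear introns and for exons of the nucleus, cytosol, membrane fraction and whole cells. Points are medians over the members (blue) or over all genes measured (grey) in single libraries, and lines join the means of each time. In exons the members fall below all genes in all but 1 nuclear library, most clearly at 120 min, and in introns they lie above from 20 to 60 min.

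The members differed widely in this share, and the order is given as a description with genes named after their values were seen. At 120 min in the cytosol it ran from 0.0799 ± 0.004 (n = 2) for Mrps15 and 0.0839 ± 0.0016 for Mrpl52 to 0.604 ± 0.028 for Mrpl50 and 0.631 ± 0.031 for Mrps2. Mrpl44, which has a ribonuclease-like fold, had 0.592 ± 0.054, and Mrpl32, whose protein is matured by a protease of the inner membrane, had 0.558 ± 0.011. In nuclear exons at the same time Mrps21 (0.105 ± 0.051), Mrps28 (0.113 ± 0.0016) and Mrps15 (0.115 ± 0.024) were lowest and Mrps2 (0.623 ± 0.034) and Mrpl32 (0.607 ± 0.010) highest. The values of Mrps15 and Mrps2 did not overlap in either fraction, whereas those of Mrpl50, Mrpl44 and Mrps2 in the cytosol differed by less than the SD of Mrpl44.

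To compare the share between fractions, log2(share + 0.01) was averaged over the times of each replicate and tested with limma. In the nucleus it was higher than in the cytosol for 73 of 78 members and lower for 0, where 75.7% of all genes were higher and 1.3% lower. The median log2 difference was 0.86 for the members and 0.81 for all genes, and the members' count lay above the background while 31 of 78 were below the median of all genes. The small subunit had 28 of 29 and the large subunit 45 of 49 higher. The largest difference was that of Mrps18c, with 1.46 (SE 0.26, adjusted p = 6.05e-05). At 60 min its share was 0.194 ± 0.11 (n = 4) in nuclear exons and 0.0539 ± 0.029 in the cytosol. Mrpl53 had a difference of 1.43 (SE 0.21, adjusted p = 1.51e-05), with 0.269 ± 0.043 in the nucleus and 0.103 ± 0.026 in the cytosol at 60 min. Mrpl3, a conserved protein of the large subunit, had 1.42 (SE 0.21, adjusted p = 1.59e-05), with 0.209 ± 0.10 and 0.0598 ± 0.040.

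Among the 5 members not called in this comparison were the 3 lowest of the set. Mrpl34 had a log2 difference of 0.17 (SE 0.16, adjusted p = 0.307). Its cytosolic share was 0.0454 ± 0.0003 (n = 2) at 15 min and its nuclear share 0.0299 ± 0.011, while at 120 min they were 0.186 ± 0.033 and 0.218 ± 0.019. Mrpl54 had a difference of 0.19 (SE 0.17, adjusted p = 0.293). Mrpl44 had 0.33 (SE 0.18, adjusted p = 0.091), with 0.272 ± 0.021 (n = 4) in nuclear exons and 0.295 ± 0.088 in the cytosol at 60 min, and it was called without replicate 5 (adjusted p = 0.039) or 6 (0.0371). Within pairs of replicates the median member difference was 0.64 in replicates 1 and 2, 1.58 in replicates 3 and 4 and 0.26 in replicates 5 and 6, beside 0.79, 1.37 and 0.19 for all genes. In the same order 46, 76 and 12 of 78 members were called higher, where 50.4%, 81.3% and 14.9% of all genes were. The difference was smallest in replicates 5 and 6, which also had the longest labeling times, in members and in all genes. The later pairs differed at a shared time too. At 60 min, median member shares in nuclear exons and cytosol were 0.254 and 0.0615 in replicate 3 and 0.152 and 0.0598 in replicate 4. They were 0.162 and 0.131 in replicate 5 and 0.136 and 0.117 in replicate 6. What sets the pairs apart was not tested.

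Between membrane fraction and cytosol the share of new RNA was not found to differ for any member over all 6 replicates. The limma test called 0 of 78 members in either direction (lowest adjusted p = 0.144), where 8.02% of all genes were lower and 0.575% higher. At an unadjusted p under 0.05, 3 members were lower and 0 higher, beside 12.5% and 4.03% of all genes. In replicates 5 and 6 alone 1 member was called lower, Mrps17 (-0.70, SE 0.17, adjusted p = 0.0469), as were 11.9% of all genes, and in the other pairs 0 members were called. The median log2 difference was -0.09 for the members and -0.03 for all genes, and 61 of 78 members were below 0. Mrpl57 had -0.55 (SE 0.21), Mrpl55 -0.50 (SE 0.21) and Mrps24 -0.46 (SE 0.19), which were the 3 with an unadjusted p under 0.05. At 60 min the share of Mrpl57 was 0.139 ± 0.015 (n = 4) at membranes and 0.177 ± 0.064 in the cytosol, and that of Mrps24 0.0665 ± 0.020 and 0.0970 ± 0.037. At the upper end, Mrps36 had 0.23 (SE 0.18, adjusted p = 0.673), Mrps27 0.21 (SE 0.17, adjusted p = 0.686) and Mrps9 0.18 (SE 0.17, adjusted p = 0.764). For contrast, all 10 mRNAs of endoplasmic reticulum proteins were lower at membranes (median -1.51), and of the mitochondrial pathway lists 1 gene was called, Yars2 (-0.87, SE 0.22, adjusted p = 0.0105).

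Introns, which stand for pre-mRNA, were replaced much faster than exons of the same nuclei. The study sequenced poly(A)-selected RNA, so these are introns still present in polyadenylated RNA. It also describes later labeling of sequence far from the poly(A) end of a transcript. The shares here are not corrected for this delay, which differs between short and long genes. In 74 members introns had at least 400 T counts in each of the 16 nuclear libraries. The other 4 (Mrpl17, Mrpl34, Mrpl36 and Mrpl43) had medians of 80 to 645.5 intronic T counts and were not compared. The intronic share, as the median over members, was 0.127 ± 0.012 (n = 2) at 15 min, 0.367 ± 0.11 (n = 4) at 20 min, 0.519 ± 0.063 (n = 2) at 30 min and 0.801 ± 0.027 (n = 2) at 40 min. It was 0.923 ± 0.061 (n = 4) at 60 min. Values above 1 can occur, since the conversion rate is an estimate. The median over members was above that of all genes in 12 of 16 libraries, namely those from 20 to 60 min, and below it in the 4 libraries of 15 and 120 min.

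Intronic over exonic share was higher in all 74 members, and in 97.6% of all 10380 genes tested (0.135% were lower). The median log2 difference was 2.24 for the members and 1.79 for all genes. Only 14 of 74 members were below the median of all genes. It was 2.16 in the small and 2.42 in the large subunit, and 3.58 in cytosolic ribosomal proteins as in respiratory chain subunits. The difference was largest for Mrps28 (3.80, SE 0.14, adjusted p = 2.33e-11), whose introns had a share of 0.484 ± 0.089 (n = 4) at 20 min and whose exons had 0.0261 ± 0.022. Mrpl1, of the stalk near the exit site, had 3.73 (SE 0.26, adjusted p = 4.97e-09) with 0.806 ± 0.23 in introns and 0.0338 ± 0.039 in exons. Mrpl13, another conserved large subunit protein, had 3.54 (SE 0.14, adjusted p = 2.54e-11) with 0.406 ± 0.10 and 0.0104 ± 0.0093.

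The smallest differences came from quite different values. Mrps2 had 1.11 (SE 0.11, adjusted p = 1.9e-07), with a high exonic share of 0.148 ± 0.049 at 20 min beside 0.360 ± 0.043 in introns. Mrpl32 had 1.24 (SE 0.12, adjusted p = 1.3e-07), with 0.278 ± 0.096 in exons and 0.729 ± 0.12 in introns. Mrpl24 had 1.12 (SE 0.13, adjusted p = 1.33e-06), but here the introns were slow, with 0.0872 ± 0.027 at 20 min, 0.385 ± 0.070 (n = 4) at 60 min and 0.767 ± 0.031 (n = 2) at 120 min. At 20 min Mrpl24 had the lowest intronic share of the 74 members, and introns held 47.3% of its nuclear T counts (median over libraries), against a median of 26.7% over the members. Mrpl37 (0.0915 ± 0.038), Mrpl3 (0.105 ± 0.059) and Mrps15 (0.127 ± 0.041) followed, named after their values were seen. Introns of Mrpl44 were at the other end, with 1.03 ± 0.21.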

How the data were processed

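RNA of 72 libraries (4 fractions of E14TG2a cells) had been sequenced as paired reads by the authors. Per the labels, processing used STAR 2.7.6, HTSeq 0.11.1 and RSEM 1.3.3 and the GRCm38 build. The authors deposited raw counts of reads per gene, and T and T2C counts per gene. A conversion rate per library was deposited as a fraction. The ratio in the deposited files is T2C over T, further divided by the conversion rate, without subtraction of a background. Rows that name no gene stayed out of all totals. Counts on no feature or on an ambiguous one were 6.26 to 35.9% of these and the gene counts together. Counts of reads aligned to more than 1 place (4836345 to 19321442 per library) were also left out and are not in this percentage. The 8 libraries of 120 min of replicates 3 and 4, absent from the source data of the study, were set aside, leaving 64. The strand setting of the read counting is not given in the sources used here. Libraries of a replicate share a culture passage. Nothing says that replicates came from separate thaws, so that p-values measure the spread between these samples.

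Of 51826 genes, 51633 matched the GENCODE M21 annotation (GRCm38), which gave symbols, coordinates and lengths. The study used release 14. Counts were summed over times into 24 replicate sums (6 replicates, 4 fractions) and tested by the quasi-likelihood method of edgeR 4.0.16 (R 4.3.3), after filterByExpr and with TMM factors, at an adjusted p under 0.05. CPM and RPKM used TMM-scaled library sizes, RPKM the median length of basic protein-coding transcripts. Shares were recomputed from counts and tested with limma 3.58.1 as log2(share + 0.01) for genes with at least 400 T counts in all 48 fraction libraries (or 16 nuclear libraries for introns), with the pair of replicates as a covariate. A log2 difference of low shares is understated by the added 0.01. Both scripts were tested on simulated data.

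Fractions with the same replicate number were split from the same cultures. Deviations from the fraction means correlated between membrane and cytosol at 0.522 to 0.669 and between nucleus and cytosol at 0.177 to 0.548 in every replicate, so the numbers were taken as pairing the samples. In 3 of these 12 comparisons another number correlated more highly (nucleus replicates 3 and 6, membrane replicate 6). For shares, deviations were taken from the mean of each pair of replicates within a fraction, and they correlated at 0.0321 to 0.0709. Both replicates of a pair then give the same value, so these correlations cannot be set against those of the levels. The main tests carry no replicate block.

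The genes and lists were chosen with earlier results of these data known. Members named are the 6 highest and 6 lowest for membrane over cytosol, the 4 highest and lowest for nucleus over cytosol, 3 of each for the 3 share comparisons, the 5 highest and lowest 3 by level, Mrps36, Mrpl12, Mrps7 and Mrpl47 for known roles, and members that failed a filter. Of other lists, counts, medians and genes outside the members' range are given. Alternatives were DESeq2 1.42.0, other scaling, filters, pseudocounts, T minimums, units of replication, the 8 libraries, the replicate block and leaving out each replicate. Fits within pairs of replicates were added after seeing the data.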

Additional observations from a re-analysis of the deposited data

Results flagged for a closer look

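In replicate 3, Mrps2 had a membrane over cytosol log2 ratio of -0.95, apart from the other 5 replicates, which lay between -0.47 and -0.18. It was the only one of 25 groups of 6 replicate ratios checked in which a single replicate stood apart in this way, and chance flags about 1 in 20 groups. Without this replicate the log2 difference of Mrps2 was -0.31 and not called (adjusted p = 0.102).

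Reads were also counted on 4 of the 5 processed pseudogenes whose symbols match but which are outside the set. Over all 72 libraries Mrpl48-ps had 2122 reads, Mrps36-ps1 830, Mrpl23-ps1 436 and Mrps36-ps2 57, above the 3 reads that a count of 0 allows. How far reads of Mrpl48, Mrps36 and Mrpl23 were split with these near copies was not tested.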

How the results depend on the processing

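For membrane over cytosol, 9 members were higher and 7 lower, with 6826 of all genes called. Library sizes alone gave 3 higher, 45 lower and 10960 genes. Other counts of lower members were 11 with DESeq2, 16 with each library as a sample and 4 without a filter. Leaving out 1 replicate gave 3 to 10 higher (5 without replicate 1, 3 without replicate 5) and 3 to 9 lower (4 without replicate 3, 3 without replicate 4). The median of members minus that of all genes, 0.0229, was -0.0346 without a filter and -0.00995 (without replicate 1) to 0.0857 (without replicate 3), so its sign was not determined.

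For nucleus over cytosol, 72 members were lower and 0 higher (1 higher with each library as a sample, 57 to 73 lower without 1 replicate). The members at the upper end had no stable sign. Mrpl33 (-0.01) was 0.14 with DESeq2, 0.29 with each library as a sample, 0.35 with library sizes alone, 0.35 without a filter and -0.128 to 0.24 without 1 replicate. Mrps18b (-0.18) was 0.15, 0.21 and 0.18 with each library as a sample, library sizes alone and no filter, Mrpl57 (-0.22) 0.055, 0.12 and 0.13, and Mrpl24 (-0.25) 0.0811, 0.12 and 0.11. Without 1 replicate these 3 ran from -0.264, -0.375 and -0.290 (without replicate 6) to 0.0939, 0.11 and 0.0248 (without replicate 1). The causes were not tested.

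For the shares, members called higher stayed at 64 to 74 (nucleus over cytosol) and 70 to 77 (nuclear intron over exon) under the 12 alternatives other than the fits within pairs of replicates, given above. Under each of these 12, 0 members were called between membrane and cytosol, and the median of members minus that of all genes, -0.0636, was -0.105 with the longest labeling time only, -0.0400 with a pseudocount of 0.05 and -0.0663 to -0.0482 without 1 replicate. With the longest labeling time only, Mrps36 (0.23) turned to -0.0276.

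With the replicate block, in which the numbers pair the fractions, 10 members were higher and 10 lower at membranes, with 9819 genes called. In the nucleus 74 were lower, and Mrpl24 (-0.24, adjusted p = 0.0206) was called. Mrpl46 was then called lower at membranes (-0.42, adjusted p = 0.0146). Shares gave 72, 0 and 74 members. No other named call changed under the block. Of 492 values of named members under alternatives, 440 kept their direction and side of the threshold, 16 lost their call, 12 gained one and 24 changed sign. Introns of 4 members fell below the minimum of T counts, and the reason was not tested. The cause of the 0 reads of Mrpl53 was not tested.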
